A study of Homo sapiens with 8 samples.

Results

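FOXQ1 and 9 other forkhead transcription factors (FOXA1, FOXA2, FOXC1, FOXF2, FOXD1, FOXO1, FOXO3, FOXP1 and FOXK1) were followed across 8 Agilent 2-colour arrays of 1 slide. They were taken by gene name from the array's annotation, which gave 15 probes of 10 genes among 58201 probes of 43317 genes. Human PANC-1 pancreatic cancer cells received si-FOXQ1-1 or si-FOXQ1-2, PC3 prostate cancer cells received either strand of miR-150 (miR-150-5p or miR-150-3p), miR-100-3p or miR-99a-3p, and FaDu hypopharyngeal squamous cell carcinoma cells received miR-99a-5p or miR-99a-3p, all with Lipofectamine RNAiMAX. On every array RNA of untransfected (mock) cells of the same line was labelled with Cy3 and RNA of the transfected cells with Cy5. No array with a control siRNA or control miRNA was analysed here, so the transfection itself and the RNA transfected cannot be told apart. There was 1 array for each condition and no dye swap, so the ratios below have no replicate and no test, and the number of arrays limits their precision. Each kind of tumour is represented by 1 cell line.

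Forkhead factors share a winged-helix DNA-binding domain, and members of the family bind related DNA sequences. FOXQ1 is studied in carcinomas, where it has been linked to invasion and to loss of epithelial character. The FOXA factors open chromatin in endodermal and prostate epithelium, the FOXO factors are held in the cytoplasm by signalling through phosphoinositide 3-kinase and AKT, and FOXM1 drives genes of the G2 and M phases of the cell cycle. A small interfering RNA guides cleavage of a matching transcript, and a miRNA represses transcripts mainly through its seed. The comparison of the siRNA arrays asks whether 2 siRNAs against FOXQ1 lowered it and left related factors near their mock level.

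The sequences of the transfected miRNAs and of the oligonucleotides that report on FOXQ1 and FOXO3 are shown first, since they define what was delivered and what was measured. In RefSeq (GRCh38.p14) 3 of the 5 miRNAs were found, at chr21:16539101-16539122 and chr21:16539138-16539159 on the plus strand for the miR-99a strands and at chr11:122152240-122152261 on the minus strand for miR-100-3p. Their seeds, bases 2 to 8, are in capitals.
hsa-miR-99a-5p: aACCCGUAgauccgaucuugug
hsa-miR-99a-3p: cAAGCUCGcuucuaugggucug
hsa-miR-100-3p: cAAGCUUGuaucuauagguaug
The 3 seeds are not identical to each other. hsa-miR-150-5p, hsa-miR-150-3p and the siRNAs are named only. FOXQ1 had 1 probe of 60 bases, printed in 1 spot, which the array's annotation places at chr6:1314629-1314688 (hg19, plus strand) in the transcript NM_033260. Its first 30 bases are shown.
FOXQ1 probe, first 30 bases: cagaggctcttcagtgatttcttgctattg
Against the 61 other probes of forkhead genes, on either strand, the longest run of bases that the FOXQ1 probe shared was 9. FOXO3 had 3 probes, and those at chr6:109005852-109005911 and chr6:109005888-109005947 (hg19, plus strand) share 24 bases, so they are not independent readings.
FOXO3, bases in both probes: TTGCCTTGTGTATTCCACTTAAAA
FOXP1 also had 3 probes and FOXA1 had 2. Of the 15 probes' transcripts 14 were found in RefSeq, each under the same symbol. Where a gene had several probes, the brightest over all arrays stood for it unless another is named.

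Some facts of the slide bear on all values. Signals stood well above background at 44.5% to 49.2% of gene spots in Cy3 and at 37.2% to 41.8% in Cy5. After Aquantile normalization between arrays, the mock channels fell into close pairs. Over 20423 probes the median standard deviation within a pair was 0.050 (log2) for PANC-1, 0.059 for FaDu, 0.045 for the PC3 miR-150 arrays and 0.052 for the PC3 miR-99a-3p and miR-100-3p arrays. Repeated spots of a probe within an array differed as much, with a median standard deviation of 0.051 to 0.061, so each pair differed by no more than the spot noise. Across the PC3 pairs the same value was 0.099 to 0.100. Of 6 squamous markers all were detected in both FaDu mock channels, with normalized signals from 279 to 76224, and only SFN was detected in every mock channel of PANC-1 and PC3, where KRT5, KRT14, TP63 and DSG3 were not well above background. Of 7 prostate markers 6 were detected in all PC3 mock channels, with KLK3, which encodes prostate-specific antigen, dim in every line. Of 8 pancreatic markers 4 (SOX9, KRT7, KRT19 and VIM) were detected in PANC-1, and likewise in the other lines, while PDX1, PTF1A, CPA1 and INS were not well above background in PANC-1, so the defining markers of pancreatic exocrine and endocrine cells were not detected there.

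FOXQ1 was lower in the transfected channel with both siRNAs in PANC-1 cells, and to about the same level. On the array with si-FOXQ1-1 its signal was 4887 in the mock channel and 1092 in the transfected channel. On the array with si-FOXQ1-2 the signals were 4557 and 1046. Both transfected channels therefore lay far below both mock channels. The log2 ratio of transfected over mock was -2.16 ± 0.29 for si-FOXQ1-1 and -2.12 ± 0.28 for si-FOXQ1-2, where ± is the scanner software's error of the spot. This is 4.47-fold and 4.36-fold lower. The siRNAs differed by 0.04 on the log2 scale, with a combined error of 0.40, so differences between them smaller than that error were not detectable. Among genes well above background in both channels, FOXQ1 had the lowest log2 ratio of 16413 on the first array and of 16577 on the second, a filter that leaves out genes lowered into the background. Among all detected genes it ranked 24 from the lowest of 19438 and 28 of 19437.

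**Figure D1:**
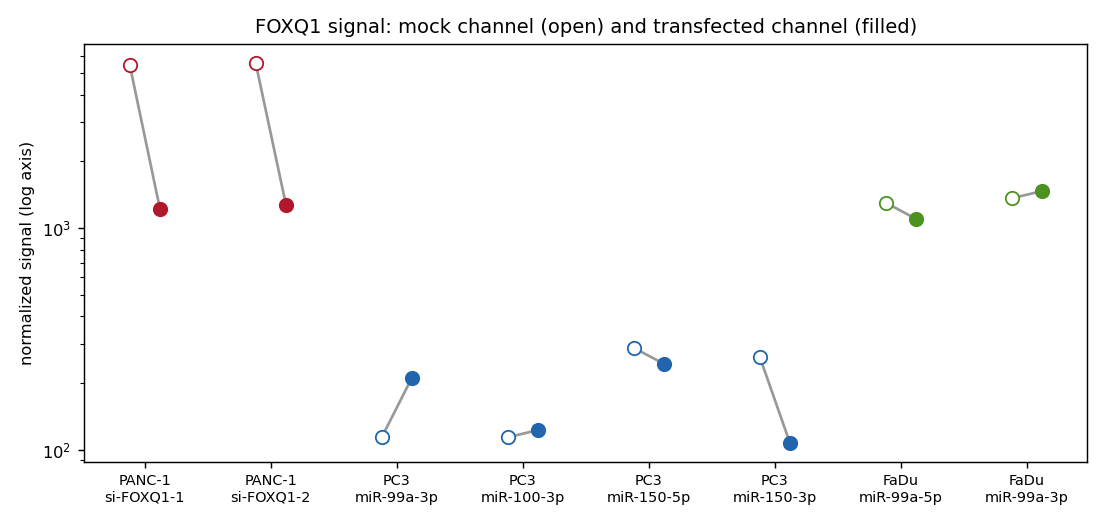
FOXQ1 signal after Aquantile normalization (vertical log axis, arbitrary scanner units) in the mock channel (open points) and transfected channel (filled points) of each of the 8 arrays, coloured by cell line. The PANC-1 pairs drop from 5470 and 5567 to 1223 and 1278, while the PC3 mock points lie at 114 on 2 arrays and at 263 and 288 on the other 2.

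No other member passed a log2 ratio of 1 in size on either siRNA array. Of the 10 members 9 were detected, meaning well above background in at least 1 channel, and 1 of them (FOXQ1) was at or below -1 on each array, against 3.31% of all detected genes with si-FOXQ1-1 and 3.29% with si-FOXQ1-2. None was at or above 1, against 0.905% and 0.412% of detected genes. The median of the 8 members other than FOXQ1 was -0.06 on the first array and -0.21 on the second, and the medians of all detected genes were -0.02 and -0.01.

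The members encoded beside FOXQ1 on the short arm of chromosome 6 were FOXC1 and FOXF2, which act in mesenchymal and vascular development. The FOXC1 signal went from 166 to 113 with si-FOXQ1-1 and from 151 to 119 with si-FOXQ1-2, log2 ratios of -0.55 ± 0.23 and -0.35 ± 0.22. For FOXF2 the signal went from 488 to 377 and from 434 to 380, log2 ratios of -0.37 ± 0.21 and -0.19 ± 0.21. Both genes were lower in the transfected channel on both arrays, and the FOXF2 value with si-FOXQ1-2 was within its error.

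FOXA2, a regulator of liver, lung and pancreas genes, differed in sign between the siRNAs. It was 2698 in mock and 3190 in transfected cells with si-FOXQ1-1, and 2496 and 2101 with si-FOXQ1-2. The log2 ratios were 0.24 ± 0.21 and -0.25 ± 0.21, a difference of -0.49 with a combined error of 0.29. FOXD1, which patterns the stroma of the kidney, was 2635 and 2651 with the first siRNA and 2574 and 1893 with the second. Its log2 ratios were 0.01 ± 0.20 and -0.44 ± 0.21, which differed by -0.45 with a combined error of 0.29. FOXA1 was not well above background in either channel of either PANC-1 array, and no ratio is read from it.

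FOXO1 and FOXO3 belong to the factors that induce genes of cell cycle arrest and stress resistance. All 3 FOXO3 probes were slightly higher in the transfected channel on both arrays, from 0.11 to 0.47, and the brightest gave 0.23 ± 0.21 and 0.13 ± 0.20. FOXO1 was dim in PANC-1, at 35.4 and 48.0 in mock, and its log2 ratios were -0.11 ± 0.37, with the Cy5 channel not well above background, and -0.07 ± 0.29. The related FOXO6, no member of the 10, was 0.52 ± 0.21 and 0.21 ± 0.21. Of the transcriptional repressors, FOXP1 gave -0.05 ± 0.20 and -0.13 ± 0.20 from its brightest probe and 0.28 ± 0.21 on each array from a second probe. FOXK1, which represses autophagy and atrophy genes in fed cells, gave -0.08 ± 0.21 and -0.24 ± 0.21.

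**Figure D2:**
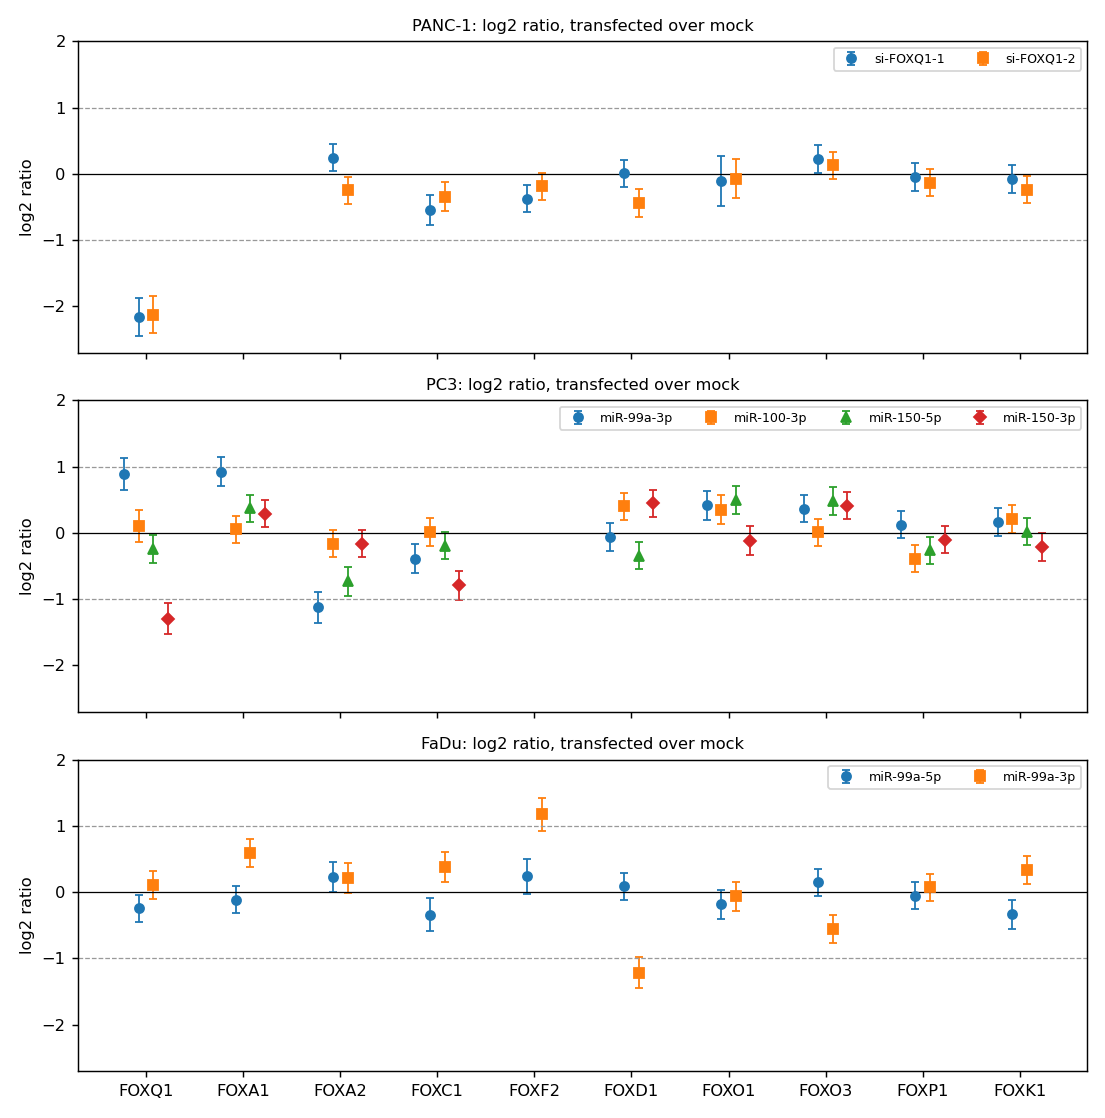
Log2 ratio of transfected over mock (vertical axis) for the brightest probe of each of the 10 members, in PANC-1 (top), PC3 (middle) and FaDu (bottom), with 1 symbol per array and bars for the scanner error. Members dim in both channels are left out, and dashed lines mark -1 and 1. FOXQ1 lies near -2.1 with both siRNAs and the other members of that panel lie between -0.55 and 0.24.

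In the wider forkhead family, 45 of 49 listed genes had a probe, and 29 and 27 were detected on the siRNA arrays. With si-FOXQ1-1, 4 were at or below -1 and 1 was at or above 1, against 3.31% and 0.905% of all detected genes. With si-FOXQ1-2 FOXQ1 was the single gene past 1, against 3.29% of detected genes at or below -1 and 0.412% at or above 1. The family medians were -0.05 and -0.10. Of 23 family genes measured in both channels of both arrays, 10 were below 0 on both, 6 were above 0 on both, and FOXQ1 alone was at or below -1 on both. The same counts over all genes were not made, so the signs are not read as a trait of the family. FOXS1, a factor of the pericyte and neural crest lineage, was next lowest. Its signal went from 394 to 122 with si-FOXQ1-1 and from 377 to 215 with si-FOXQ1-2, log2 ratios of -1.69 ± 0.26 and -0.81 ± 0.22. With normexp background correction and loess these were -1.27 and -0.58. FOXL1, found in the mesenchyme of the gut, was -0.59 ± 0.21 and -0.51 ± 0.21. FOXM1 was at mock level, 0.04 ± 0.20 and -0.06 ± 0.20.

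The remaining genes past 1 with si-FOXQ1-1 were dim in a channel and carry only bounds. FOXD2 was at least 1.18-fold lower and FOXD3 at least 1.42-fold lower. For FOXA3, a hepatic factor, the bound of 2.49-fold higher equals its ratio, a log2 ratio of 1.32 ± 0.51. With normexp and loess, which adds an offset to dim signals, these were -0.38, -0.44 and 0.42 on the log2 scale. With si-FOXQ1-2 FOXD3 was measured at -0.10 ± 0.29, FOXD2 had a bound of 1.02-fold lower, and FOXA3 was dim in both channels. A bound is, on the normalized scale, the brighter channel over the higher of the dim probe's own signal and the lowest signal well above background in that channel. Where the dim probe's own signal was the higher, the bound equals the ratio. No bound allows for the scanner error.

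**Figure D3:**
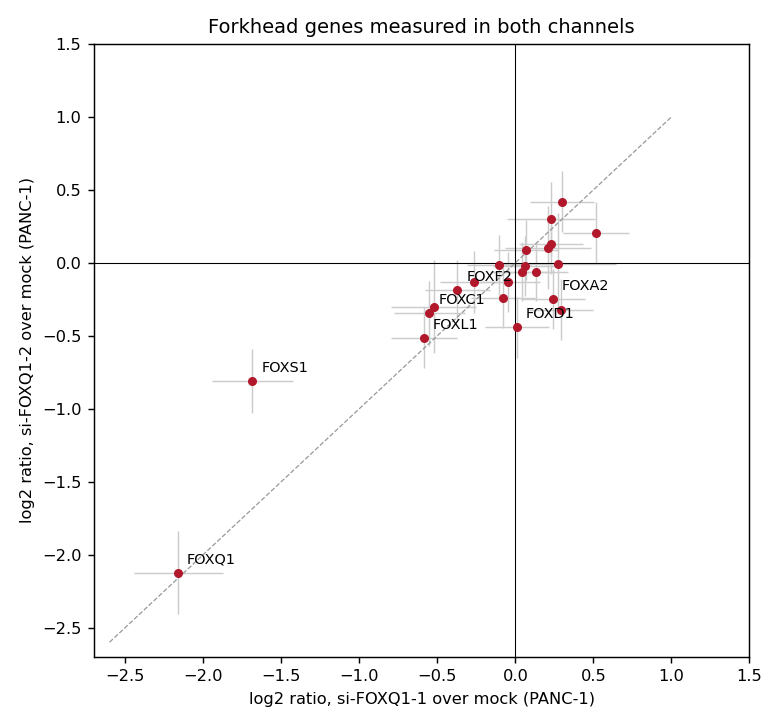
Log2 ratio with si-FOXQ1-1 (horizontal axis) against si-FOXQ1-2 (vertical axis) for the 23 forkhead genes measured in both channels of both PANC-1 arrays, with bars for the scanner error and a dashed line of equality. FOXQ1 stands at -2.16 and -2.12, and FOXS1 at -1.69 and -0.81 lies between it and the other genes.

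Genes near FOXQ1 on chromosome 6p25 and genes linked to it were described from fixed lists. Beside the counts that follow, 3.31% of all detected genes were at or below -1 with si-FOXQ1-1 and 3.29% with si-FOXQ1-2. The shares at or above 1 were 0.905% and 0.412%. Of 8 neighbours, FOXC1 and FOXF2 among them, 6 were detected on each siRNA array, none was past 1, and the medians were -0.26 and 0.01. EXOC2, an exocyst subunit, gave 0.51 ± 0.23 and 0.37 ± 0.23, GMDS, an enzyme of fucose synthesis, 0.41 ± 0.24 and 0.20 ± 0.24, and the phosphatase gene DUSP22 -0.15 ± 0.21 and 0.21 ± 0.21. The non-coding neighbour FOXCUT was above background only in Cy3, with a bound of 1.15-fold lower for si-FOXQ1-2 and none for si-FOXQ1-1. HUS1B was dim on both siRNA arrays. Of 16 genes linked to FOXQ1 in the literature on invasion and growth, 11 were detected. None was past 1 on the first array and 1 was at or below -1 on the second, PDGFRB, which was well above background in Cy3 alone and allowed no bound. The list medians were -0.17 and -0.24. Of 25 FOXO target genes 21 and 20 were detected, 1 was at or below -1 on each array, 1 was at or above 1 with si-FOXQ1-1 and none with si-FOXQ1-2, and the medians were -0.02 and -0.07. Of these 3 genes, named after their values were seen, CCNG2 was at least 1.59-fold lower with si-FOXQ1-1, INSR at least 1.07-fold lower with si-FOXQ1-2, and FBXO32 was 1.13 ± 0.23 with si-FOXQ1-1 and -0.11 ± 0.21 with si-FOXQ1-2.

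In PC3 cells FOXQ1 was well above background in every channel, and its ratio was above 0 with some miRNAs and below 0 with others. With miR-99a-3p its signal was 172 in mock and 319 in transfected cells, a log2 ratio of 0.89 ± 0.24. With miR-100-3p it was 108 and 116, a ratio of 0.11 ± 0.24. With miR-150-5p it was 278 and 236, a ratio of -0.24 ± 0.21, and with miR-150-3p 328 and 134, a ratio of -1.29 ± 0.24, which is 2.45-fold lower. With normexp and loess the ratios with miR-99a-3p and miR-150-3p were 0.49 and -0.96. By these ratios FOXQ1 was higher after miR-99a-3p and lower after miR-150-3p.

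The FOXQ1 level in PC3 mock cells differed between the arrays by about as much as these ratios. After normalization the mock level was 114 on the arrays of miR-99a-3p and miR-100-3p, and 288 and 263 on those of miR-150-5p and miR-150-3p. This difference of 1.28 on the log2 scale (2.42-fold) was shown by few probes. A difference of at least 1 in that direction was found at 39 of 20423 probes (0.191%), and FOXQ1's standard deviation over the 4 mock channels, 0.74, was reached by 42 of them. The transfected levels were 211 with miR-99a-3p, 123 with miR-100-3p, 244 with miR-150-5p and 108 with miR-150-3p, and they overlapped the mock levels. Relative to the averaged 4 PC3 mocks the log2 ratios became 0.25 for miR-99a-3p, -0.53 for miR-100-3p, 0.46 for miR-150-5p and -0.72 for miR-150-3p. The signs for miR-99a-3p and miR-150-3p were kept and those for miR-100-3p and miR-150-5p turned. This control was chosen after the data were seen. In FaDu cells FOXQ1 went from 933 to 788 with miR-99a-5p and from 1669 to 1797 with miR-99a-3p, log2 ratios of -0.24 ± 0.21 and 0.11 ± 0.20.

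Of the other members on the PC3 arrays, the FOXA factors had the largest ratios with miR-99a-3p. FOXA1, a cofactor of steroid receptors in prostate epithelium, went from 3554 to 6743 with miR-99a-3p. Its log2 ratio there was 0.92 ± 0.22, with a standard deviation of 0.048 over 10 spots, and the other PC3 arrays gave 0.06 to 0.37. FOXA2 went from 5905 to 2708 with miR-99a-3p, a log2 ratio of -1.12 ± 0.23 (2.18-fold lower), and from 3719 to 2239 with miR-150-5p, a ratio of -0.73 ± 0.21. With miR-100-3p and miR-150-3p FOXA2 was -0.16 ± 0.20 on each array. The FOXA factors thus stood on opposite sides of 0 after miR-99a-3p.

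Of 9 detected members, 1 was at or below -1 with miR-99a-3p (FOXA2) and 1 with miR-150-3p (FOXQ1), and none with miR-100-3p or miR-150-5p. The shares of all detected genes were 7.39%, 6.68%, 3.34% and 4.49% in that order. No member was at or above 1, against 4.23%, 2.69%, 0.987% and 0.664% in the same order. The member medians were 0.17 with miR-99a-3p, 0.06 with miR-100-3p, -0.19 with miR-150-5p and -0.12 with miR-150-3p, and the medians of all detected genes lay between -0.02 and 0.02.

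Against the mock of the same array FOXC1 was lowest with miR-150-3p, where it went from 366 to 212, a log2 ratio of -0.79 ± 0.22. It was 0.01 to -0.39 on the other PC3 arrays. FOXC1 shared in part the mock difference of FOXQ1, with a level 1.38-fold higher in the mock channels of the miR-150 arrays, and relative to the averaged PC3 mocks it was -0.58 with miR-150-3p, -0.74 with miR-99a-3p and 0.06 with miR-150-5p, so that its order among the miRNAs turned. FOXD1 was between -0.34 ± 0.21 with miR-150-5p and 0.45 ± 0.21 with miR-150-3p. FOXO1 was between -0.12 ± 0.21 with miR-150-3p and 0.50 ± 0.22 with miR-150-5p. By its brightest probe FOXO3 was 0.01 ± 0.20 with miR-100-3p and 0.37 to 0.48 with the other miRNAs. The probe overlapping that one gave 0.21 with miR-100-3p and 0.71 with miR-150-3p. The FOXO3 probe that overlaps neither gave -0.35 ± 0.24 with miR-100-3p and -0.17 ± 0.22 with miR-150-3p. With miR-99a-3p and miR-150-5p it gave 0.14 ± 0.23 and 0.27 ± 0.22.

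The FOXP1 probes, which lie at different positions of the gene, did not give the same values in PC3. With miR-150-3p the brightest probe gave -0.10 ± 0.20, a second 0.31 ± 0.21 and the third, whose annotated transcript is NM_001012505, 0.97 ± 0.22. The third gave 0.72 with normexp and loess. With miR-99a-3p the same probes gave 0.12 ± 0.20, 0.70 ± 0.21 and 0.47 ± 0.21. FOXK1 stayed between -0.21 ± 0.21 and 0.21 ± 0.21 on the PC3 arrays. FOXF2 was not well above background in any PC3 channel.

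In FaDu cells FOXF2 and FOXD1 were past 1 with miR-99a-3p and no member was with miR-99a-5p, as more of all genes were with miR-99a-3p. FOXF2 went from 160 to 360 with miR-99a-3p, a log2 ratio of 1.17 ± 0.24, and was 0.24 ± 0.26 with miR-99a-5p. FOXD1 went from 1522 to 655 with miR-99a-3p, a ratio of -1.22 ± 0.23, and was 0.09 ± 0.20 with miR-99a-5p. With normexp and loess the miR-99a-3p values were 0.74 and -0.95, both inside 1. These were the members past 1 among 10 detected, 1 in each direction, against 9.37% of detected genes at or below -1 and 8.25% at or above 1. With miR-99a-5p no member was past 1, against 4.86% and 0.851%. The member medians were 0.16 with miR-99a-3p and -0.08 with miR-99a-5p, beside -0.03 for all detected genes on both arrays. The 6 squamous markers of FaDu were all lower in the transfected channel with miR-99a-3p, 4 of them at or below -1, with a median of -1.41, and had a median of 0.04 with miR-99a-5p. Their part in the values of the members was not tested.

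FOXO3 was lower after miR-99a-3p in FaDu from all 3 probes, at -0.56 ± 0.21, -0.82 ± 0.23 and -0.22 ± 0.21. The value of -0.82 was -0.50 with normexp and loess. In PC3 the same probes gave 0.37 ± 0.21, 0.14 ± 0.23 and 0.48 ± 0.21. FOXA1 was higher in both lines, at 0.58 ± 0.21 in FaDu. FOXC1 was 0.37 ± 0.23 in FaDu and -0.39 ± 0.22 in PC3. FOXA2 was 0.21 ± 0.22 with miR-99a-3p in FaDu, FOXK1 0.34 ± 0.21, FOXP1 0.07 ± 0.20 and FOXO1 -0.07 ± 0.22. With miR-99a-5p the members other than FOXF2 lay between -0.34 and 0.22. Differences between the lines were not tested, with 1 array in each.

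Of the forkhead genes outside the group of 10, FOXM1 had the lowest ratio measured in both channels. It went from 3102 to 522 with miR-99a-3p in PC3, a log2 ratio of -2.57 ± 0.31. It was -1.10 ± 0.23 with miR-100-3p, -1.02 ± 0.22 with miR-150-3p and -0.33 ± 0.21 with miR-150-5p in the same line. In FaDu FOXM1 was -0.07 ± 0.20 with miR-99a-5p and 0.17 ± 0.20 with miR-99a-3p. The normalized PC3 mock signals of FOXM1 lay between 2196 and 2469.

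Further forkhead genes passed 1 on 1 or more miRNA arrays. FOXL1 was -1.10 ± 0.23 with miR-99a-3p in PC3 and 0.74 ± 0.24 with the same miRNA in FaDu. FOXO4 was 1.05 ± 0.24 with miR-99a-3p in PC3, and 0.65 with normexp and loess. FOXO6 was 0.44 ± 0.22 there and -1.86 ± 0.27 with miR-99a-3p in FaDu. FOXA3 was 5.68-fold higher with miR-99a-3p in PC3, a log2 ratio of 2.50 ± 0.39 with the mock channel dim, where the bound equals the ratio. It was 1.35 ± 0.46 with miR-100-3p. With normexp and loess the log2 ratios were 0.94 and 0.42. FOXD4 was at least 1.64-fold lower with miR-99a-5p in FaDu. Of the others past 1 with a dim channel, the bounds were 1.26-fold lower for FOXD2 with miR-99a-3p in PC3, 1.14-fold lower for FOXJ2 with miR-150-3p in PC3, 1.10-fold lower for FOXJ2 with miR-99a-5p in FaDu and 1.12-fold lower for FOXN1 with miR-150-5p in PC3. FOXI3 with miR-100-3p, FOXD3 with miR-150-5p, FOXN1 with miR-99a-3p and miR-100-3p, and FOXO4 with miR-99a-5p allowed no bound.

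Over the miRNA arrays, the family list had 27 to 29 genes detected, 2 to 5 at or below -1, up to 2 at or above 1, and medians from -0.10 to 0.21, on arrays where 3.34% to 9.37% of all detected genes were at or below -1 and 0.664% to 8.25% at or above 1. The 6p25 list had 5 or 6 genes detected, none at or below -1, 1 at or above 1 (FOXF2) and medians from -0.36 to 0.37. The list linked to FOXQ1 had medians from -0.46 to 0.39 and the FOXO target list from -0.34 to 0.39.

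**Figure D4:**
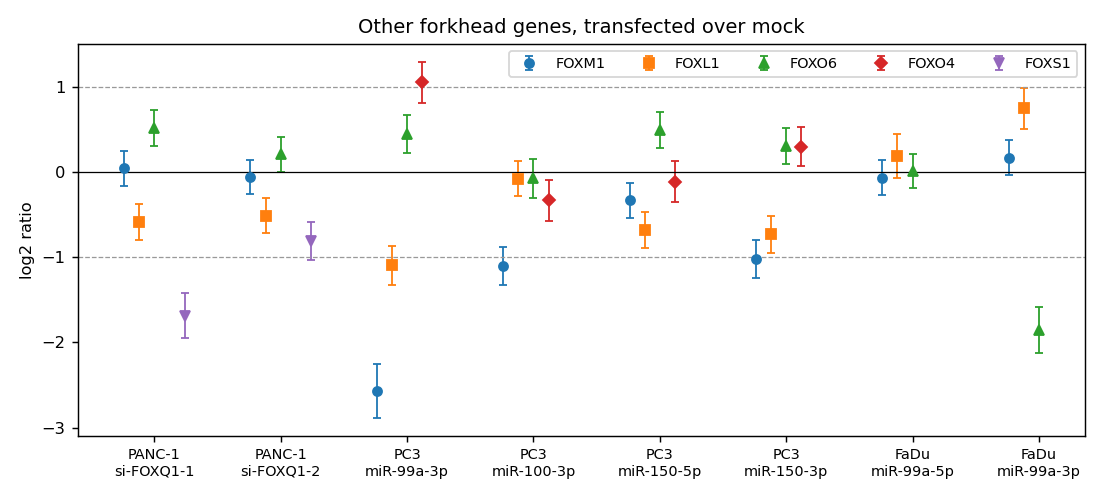
Log2 ratio of transfected over mock (vertical axis) on each of the 8 arrays for FOXM1, FOXL1, FOXO6, FOXO4 and FOXS1 where both channels were well above background, with bars for the scanner error and dashed lines at -1 and 1. FOXM1 is at -2.57 with miR-99a-3p in PC3 and near 0 in PANC-1 and FaDu.

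The genes whose pattern was most like that of FOXQ1 over the 8 log2 ratios, among 15940 genes detected on all arrays, were ZNF418 (Pearson's r = 0.94), METTL21B (0.93), TSC22D1 (0.92), BMP1 (0.92) and KIAA2026 (0.92). They are the highest of 15940 correlations over 8 points, and whether such values exceed chance was not tested. These points share the slide, and the labels do not say whether arrays of a line share mock RNA. The values of these genes did not span the range of FOXQ1: ZNF418 lay between -0.07 and 0.37, and TSC22D1 was above 0 on all arrays. BMP1 was well above background in Cy3 alone on both siRNA arrays. KIAA2026 was -1.75 with si-FOXQ1-1 and -0.93 with si-FOXQ1-2, with the Cy5 channel not well above background on both, and -0.25 and -0.21 with normexp and loess.

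The mock channels gave the level of each member in the 3 lines, and here limma was fitted across all 58201 probes with Benjamini-Hochberg adjustment, with 4 PC3, 2 FaDu and 2 PANC-1 channels. The labels do not say that mock cells were separate cultures, so p measures the spread between hybridisations. The channels of a pair lay closer together than channels of different PC3 pairs. The fit was therefore repeated with each pair averaged and counted as 1 sample. This left 2 PC3 samples and 1 each for FaDu and PANC-1, whose spread is assumed to be that of PC3. By the first fit 9 of 10 members differed between PC3 and PANC-1, 8 between FaDu and PANC-1 and 8 between PC3 and FaDu, against 33.2%, 34.7% and 38.7% of all probes. Among probes well above background in all mock channels of at least 1 line of the pair, 72.1%, 73.9% and 79.4% differed. With alike channels counted as 1 sample the counts were 7, 5 and 6 members, against 18.9%, 21.0% and 27.4% of probes.

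FOXQ1 was highest in PANC-1, with normalized mock signals of 5470 and 5567. FaDu had 1304 and 1364, and PC3 had 114, 114, 263 and 288. The lines did not overlap. PANC-1 was 31.2-fold above PC3 (log2 difference of PC3 from PANC-1 -4.96 ± 0.44 SE, limma adjusted p = 0.00016) and 4.14-fold above FaDu (adjusted p = 0.020), and FaDu was 7.54-fold above PC3 (adjusted p = 0.0017). With alike channels counted as 1 sample the adjusted p-values were 0.034, 0.18 and 0.066, so only the difference between PC3 and PANC-1 was called in both fits. Each of these 3 values is the highest over the 13 alternatives tried, and the lowest were 6.8e-08, 0.00012 and 9.0e-06.

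FOXA1 and FOXA2 set the lines apart in different ways. FOXA1 was 2435 to 2508 in PC3 and 653 and 657 in FaDu, and was not well above background in PANC-1, where PC3 was at least 119.5-fold and FaDu at least 31.7-fold higher. PC3 was 3.78-fold above FaDu (limma adjusted p = 3.0e-06, or 0.011 with alike channels as 1 sample, over a range of 3.7e-10 to 0.011 in all alternatives). FOXA2 was 3736 to 4122 in PC3, 3027 and 3035 in PANC-1, and 181 and 176 in FaDu. It was 22.1-fold lower in FaDu than in PC3 and 17.0-fold lower than in PANC-1, and both differences were called in all 13 alternatives. The 1.30-fold difference between PC3 and PANC-1 was not called with alike channels as 1 sample (limma adjusted p = 0.22, over a range of 0.00051 to 0.22).

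FOXF2 was 556 and 531 in PANC-1, 110 and 128 in FaDu, and not well above background in PC3, which was at least 34.9-fold below PANC-1 and at least 7.62-fold below FaDu. FOXD1 followed the order of FOXQ1, with 2978 and 3137 in PANC-1, 1183 and 1243 in FaDu and 572 to 621 in PC3. The FOXD1 differences between all 3 pairs of lines, from 2.05-fold to 5.17-fold, were called in every alternative. FOXC1 was 195 and 199 in PANC-1, 139 and 154 in FaDu and 200 to 303 in PC3, and only PC3 and FaDu were called different (limma adjusted p = 0.012, or 0.14 with alike channels as 1 sample).

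FOXP1 was 9489 to 11574 in PC3, 2348 and 2418 in FaDu and 1242 and 1311 in PANC-1 by its brightest probe. By a second probe FaDu, with 3234 and 2722, was above PC3, with 2152 to 2301 (limma adjusted p = 0.0090). By the third probe PC3 was 1.67-fold above FaDu (limma adjusted p = 0.012), as by the brightest. The order of these lines thus depended on the probe, and neither the second nor the third probe was called with alike channels as 1 sample. All 3 probes were lowest in PANC-1, where the third was well above background in 1 of 2 channels. By its brightest probe FOXO3 was 6000 and 6295 in FaDu, 5206 and 5346 in PANC-1 and 3038 to 3154 in PC3. By that probe FaDu and PANC-1 were not called different (limma adjusted p = 0.064), though 2 of 13 alternatives called them. PC3 was below FaDu in both fits and below PANC-1 in the first fit alone (limma adjusted p = 0.00012 for the brightest probe). By the FOXO3 probe that overlaps neither other, FaDu was 1.59-fold above PANC-1 (limma adjusted p = 0.0057). That difference was not called with alike channels as 1 sample. FOXO1 was 195 and 209 in FaDu, 135 to 157 in PC3 and 44.1 and 63.5 in PANC-1. PC3 and FaDu were not called different in FOXO1 (adjusted p = 0.053), while PANC-1 was 2.74-fold below PC3 and 3.82-fold below FaDu in both fits. FOXK1 was 468 and 518 in PANC-1, 303 and 317 in FaDu and 266 to 293 in PC3. It was 1.77-fold higher in PANC-1 than in PC3 in both fits, and PC3 and FaDu were not called different (limma adjusted p = 0.19).

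**Figure D5:**
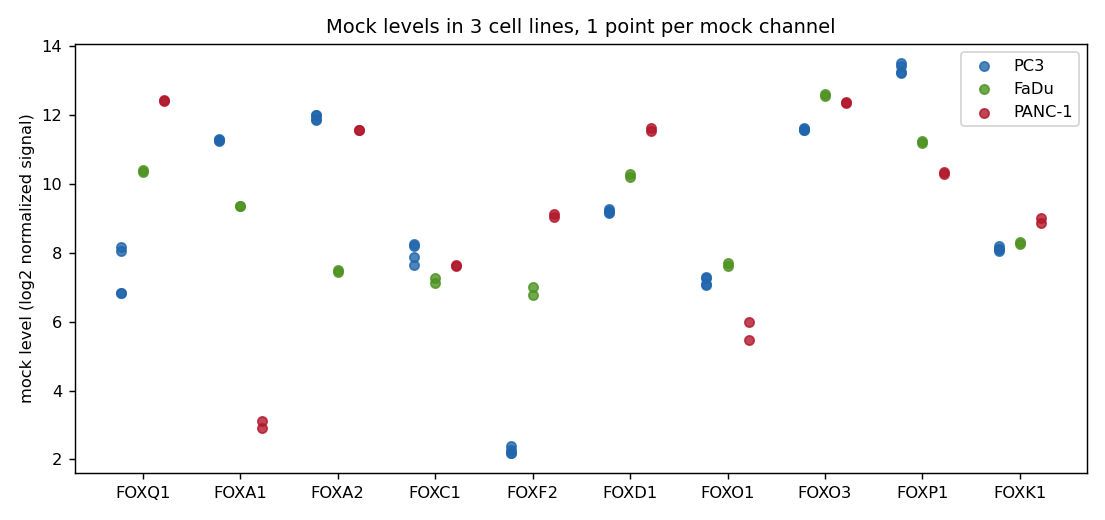
Level of each member in mock cells (vertical axis, log2 of the normalized Cy3 signal of its brightest probe) with 1 point per mock channel for PC3, FaDu and PANC-1. Points of FOXA1 in PANC-1 and of FOXF2 in PC3 were not well above background, and levels of different genes are not comparable since each has its own probe. FOXQ1 in PC3 is split into 2 lower and 2 higher points.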

How the data were processed

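The authors scanned 8 arrays of 1 slide and processed the scans in Feature Extraction 10.7.3.1 from Agilent. The log10 ratios (Cy5 over Cy3) they deposited are background-corrected and dye-normalized within each array by that software, per the file headers. The deposited intensity columns come from the same run, with surrogate values for signals not above background, and are not scaled between arrays. The deposited score columns are flags of outlier, saturation and background status. The value table of the series holds the same log10 ratios, with a largest difference of 0. The probe positions are those of the array design (hg19).

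Log10 ratios were multiplied by 3.3219. Control spots were dropped, as was any spot that Feature Extraction marked as an outlier (non-uniform, or apart from its population) in Cy3 or Cy5, and the remaining spots of each probe were averaged. The probe with the highest mean signal stood for its gene. A gene was detected where Cy3 or Cy5 stood well above background. Cy3 and Cy5 signals were brought to a common scale with limma 3.58.1 (R 4.3.3, Aquantile), and the Cy3 levels were tested with lmFit and eBayes, a step first tested on simulated data. In that simulation all channels were independent, so it does not bear on mock channels that fall into close pairs. The remaining steps ran in Python 3.11.15 (numpy 2.4.6, pandas 2.3.3). Alternatives were normexp (offset 50) with loess, the series values, outlier spots kept, other filters, other probe choices, a log2 ratio of 0.58, other scalings and each mock channel left out. After the data were seen, the mean mock of a line as control and alike mock channels counted as 1 sample were added.

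The members, the lists (forkhead family, 6p25 neighbours, genes linked to FOXQ1, FOXO targets and cell type markers) and the tests were chosen with earlier results of these data known. Genes named were all members, other forkhead genes detected and past a log2 ratio of 1 on any array, FOXM1, the detected 6p25 neighbours, listed genes past 1 with the same sign on both siRNA arrays (there were none), the 5 genes most like FOXQ1 and the markers. PDGFRB, CCNG2, INSR and FBXO32 fall outside this rule and were named, after their values were seen, as the genes behind small counts. The level of 1 marker is not reported here.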

Additional observations from a re-analysis of the deposited data

Results flagged for a closer look

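A single probe had a mock channel far from the others of its line. For the dimmest FOXO3 probe, at chr6:108985954-108986013 (hg19), the PC3 mock signals were 134, 139, 138 and 166, and the gap of the highest to its neighbour was 0.837 of the whole range on the log2 scale. Chance gives such a gap in about 1 in 20 groups, and 15 probes were looked at. The brightest FOXO3 probe did not show it.

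After miR-99a-3p, 3 probes lay on opposite sides of 0 in PC3 and FaDu, each by more than its scanner error. FOXC1 was -0.39 in PC3 and 0.37 in FaDu, a difference of -0.76 on the log2 scale. The overlapping FOXO3 probes were 0.37 and 0.48 in PC3 and -0.56 and -0.22 in FaDu, differences of 0.92 and 0.70. With 1 array in each line these differences were not tested, and for FOXC1 the PC3 value was -0.74 relative to the averaged PC3 mocks.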

How the results depend on the processing

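No paired analysis was possible because the transfections have no replicate and the numbers of the mock channels only follow accession order. No value past a threshold changed sign. FOXQ1 with either siRNA stayed between -2.17 and -2.11 under all alternatives. With normexp and loess FOXQ1 was 0.49 with miR-99a-3p and -0.96 with miR-150-3p in PC3, no member was at or below -1 with miR-150-3p in PC3 (0 in place of 1), and with miR-99a-3p in FaDu 0 members were past 1 in either direction. Relative to the averaged mocks of the line, an alternative chosen after seeing the data, FOXQ1 in PC3 was 0.46 with miR-150-5p, -0.72 with miR-150-3p, 0.25 with miR-99a-3p and -0.53 with miR-100-3p (the signs with miR-150-5p and miR-100-3p turned), 0 members were at or below -1 with miR-150-3p, and the member median with miR-150-5p was 0.058 in place of -0.19. The cause of these shifts was not tested. With 0.58 as threshold, 2 members were higher with miR-99a-3p in PC3 and 2 in FaDu (13.0% and 18.3% of detected genes), and 1 and 2 were lower with miR-150-5p and miR-150-3p (10.2% and 14.9%). With no filter on dim probes 1 member (FOXA1, dim in both channels) was above 1 with si-FOXQ1-2, and the medians of the 6p25 list were 0.00 and -0.13 with miR-99a-3p and miR-150-3p in PC3 and 0.056 with miR-99a-3p in FaDu. With both channels required, the FOXO target median with miR-99a-3p in FaDu was -0.11. With alike mock channels counted as 1 sample, also chosen after seeing the data, 5 members differed between FaDu and PANC-1 in place of 8. With single mock channels left out, members called were 8 to 10 for PC3 against PANC-1, 7 to 8 for FaDu against PANC-1 and 7 to 9 for PC3 against FaDu, beside 28.0% to 32.9%, 30.2% to 34.3% and 36.5% to 37.9% of all probes. The FOXQ1 call between FaDu and PANC-1 was lost without either channel of either line. Signal over background limits FOXO1 in PANC-1, FOXA1 in PANC-1 and FOXF2 in PC3.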
